A study of Mus musculus with 25 samples.

Results

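Serpinb11, Hapln4 and Otoa were 3 of the genes whose RNA differed most between pituitary tumors in which RB had been restored and tumors still under RB knockdown. They were picked by symbol from the differences between the 12w-res group and the dox-treated tumors, with no stated threshold. All 3 were listed in both tables, as 3 of 15315 genes in the long-term experiment and 3 of 14007 in the short-term experiment, and all 3 passed the minimum of 10 reads in over 50% of a condition's mice. The differences that led to the choice are given here as a description, and the 3 genes are tested only in comparisons that the choice did not use. The comparison between the dox-treated tumors of the long-term experiment still shares its mice with the choice.

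Tumors came from shRb mice, which carry the reverse tetracycline transactivator (rtTA) at Rosa26 and, at Col1a1, a doxycycline-inducible shRNA against Rb1 together with a GFP reporter. In these mice dox in the drinking water lowers RB, and its removal allows RB to return. The long-term experiment held 12 mice, 3 females after 6 weeks of dox (6w+dox), 2 females and 2 males after 12 weeks of dox (12w+dox), and 3 females and 2 males that had 6 weeks of dox followed by 6 weeks without it (12w-res). The short-term experiment held 13 mice, 3 males after 16 weeks of dox (16w +dox), 4 females 1 day after dox removal (1d -dox), 3 males at 3 days (3d -dox) and 3 females at 5 days (5d -dox). All 7 groups carried the same transgenes and had all received dox, so none was free of RB knockdown throughout. The model rests on 1 shRNA, and rtTA runs from the broadly active Rosa26 promoter, so that knockdown was not limited to one pituitary cell type. Long-term libraries were made by poly(A) enrichment and short-term libraries by rRNA depletion, and levels were not compared between the 2 experiments. Sex and group were mixed in the short-term experiment, where only 3d -dox against 16w +dox (males) and 5d -dox against 1d -dox (females) compared mice of one sex.

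RB holds E2F-driven genes silent outside the cell cycle, and its loss in the mouse pituitary gives tumors of the intermediate lobe, whose melanotrophs make Pomc. The 3 genes are not known as a common pathway. Serpinb11 encodes a clade B serpin, one of the serpins that mostly stay inside the cell and block proteases. Hapln4 encodes a link protein that ties hyaluronan to lecticans such as brevican, best known from the perineuronal nets of the brain. Otoa encodes otoancorin, a membrane-anchored protein of the inner ear that holds its acellular gels to the epithelium below.

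In the RefSeq annotation of GRCm38 (mm10), Serpinb11 lies on the plus strand of chromosome 1 from 107362314 to 107380475. Its longest coding transcript in GENCODE vM21 has 8 exons. Hapln4 lies on the plus strand of chromosome 8 from 70083529 to 70090862, with 5 exons. Otoa lies on the plus strand of chromosome 7 from 121083424 to 121163093, with 29 exons. No RefSeq gene overlapped any of the 3, so their reads were not shared with an annotated neighbour on either strand.

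The shRNA target site is shown because the knockdown acts through it, and the promoter windows because Serpinb11 and Otoa lay at opposite ends of the same comparison. The site has 21 bases in the coding sequence of Rb1, in exon 22 of 27, on the minus strand at chr14:73206076-73206096. Among GENCODE genes, 1 gene (Rb1) held the whole site. The longest coding transcripts of Serpinb11, Hapln4 and Otoa each shared at most 7 bases in a row with it. An effect of the shRNA on these transcripts was not tested. Each promoter window holds the 250 bases before the annotated start on GRCm38.p6 (RefSeq), at chr1:107362064-107362313 for Serpinb11 and chr7:121083174-121083423 for Otoa. Capitals mark the shRNA target and, in the Otoa window, the CHR letters TTTGAA, the element that the DREAM complex uses at late cell cycle genes.
Rb1 target site: GAGGAGTTTGATTCCATTATA
Serpinb11 promoter: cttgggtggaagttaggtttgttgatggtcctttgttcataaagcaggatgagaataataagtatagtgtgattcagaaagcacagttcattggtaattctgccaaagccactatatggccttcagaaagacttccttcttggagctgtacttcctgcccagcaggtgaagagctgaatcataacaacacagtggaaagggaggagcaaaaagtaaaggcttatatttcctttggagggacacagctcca
Otoa promoter: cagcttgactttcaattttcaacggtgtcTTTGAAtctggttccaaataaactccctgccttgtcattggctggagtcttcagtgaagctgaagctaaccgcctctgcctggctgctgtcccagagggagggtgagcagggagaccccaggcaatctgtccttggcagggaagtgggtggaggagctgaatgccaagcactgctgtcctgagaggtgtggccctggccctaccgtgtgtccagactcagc
The Serpinb11 window was 42.8% G and C and held 0 CpG, and the Otoa window was 56% G and C and held 3, beside a median of 6 over all promoters. On either strand, the E2F letters TTTCGCGC or TTTGGCGC were in neither window and in 0.654% of 32851 promoters. TTTGAA was in the Otoa window and in 16% of all promoters, and TATAAA was in neither window and in 12.4% of all. These are matches of letters, not sites of binding. The promoter of Hapln4 was not analysed here.

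RNA was measured as FPM, reads of a gene scaled by the DESeq2 size factor of each library, and all FPM values are linear unless log2 is stated. Long-term libraries held 19066053 to 28968476 reads on genes and short-term libraries 9573101 to 13036900. Rb1 stood at 1.86 to 5.09 FPM in the 7 long-term mice on dox and at 16.1 to 20.3 in 12w-res, as the labels say. In the short-term mice GFP fell from 1025 to 1360 FPM at 16w +dox to 9.34 to 15.2 at 5d -dox, while Rb1 lay between 3.47 and 6.03 in all 13. Pomc alone took 39.1% to 43.2% of reads in 12w-res and 12.9% to 32.2% in the long-term mice on dox. Of the 4 mice at 12w+dox, replicate 1 (female) stood apart. Over the 1727 genes called between 12w-res and 12w+dox, it was the 12w+dox mouse nearest to the 12w-res mean in 64.3% of them, and results that rest on it are also given without it.

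Serpinb11 was low on dox and far higher after RB restoration. At 6w+dox it stood at 2.5, 2.09 and 1.24 FPM in the 3 mice, from 30 to 47 reads. At 12w+dox the 4 mice gave 9.60, 1.22, 1.11 and 1.23 FPM, the high value being replicate 1 with 275 reads. In 12w-res the 5 mice gave 169, 103, 188, 176 and 125 FPM, from 1947 to 4123 reads. Every 12w-res mouse was above every mouse on dox, and the closest pair, 103 FPM in 12w-res and 9.60 FPM at 12w+dox, was still far apart. Group means were 1.95 ± 0.644 (SD, n = 3), 3.29 ± 4.20 (SD, n = 4) and 152 ± 36.4 FPM (SD, n = 5).

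The fitted difference of Serpinb11 between 12w-res and 12w+dox was 5.82 (SE 0.44) on the scale of log2(FPM + 0.5). It was the highest of all 15315 genes. Against 6w+dox the difference was 5.96 (SE 0.48), again the highest. Without 12w+dox replicate 1 the difference from 12w+dox was 6.46. These values chose the gene and carry no test.

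Hapln4 was likewise low on dox and high after RB restoration, with a wider spread between mice. At 6w+dox it stood at 1.34, 3.38 and 1.66 FPM. At 12w+dox it stood at 5.13, 7.43, 4.03 and 2.12 FPM. In 12w-res it stood at 56.5, 97.3, 120, 180 and 169 FPM, so that all 5 mice were above all 7 on dox. Group means were 2.13 ± 1.10 (SD, n = 3), 4.68 ± 2.22 (SD, n = 4) and 125 ± 51.1 FPM (SD, n = 5). The fitted differences of Hapln4 were 4.59 (SE 0.36) from 12w+dox and 5.54 (SE 0.39) from 6w+dox on the log2 scale, second only to Serpinb11 in both comparisons. Replicate 1 of 12w+dox was within the range of the other 3 mice for Hapln4, and without it the difference from 12w+dox was 4.66.

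Otoa went the other way, from a moderate level on dox to nearly no reads. At 6w+dox it stood at 15.2, 10.2 and 7.20 FPM. At 12w+dox it stood at 4.92, 16.4, 17.5 and 15.8 FPM, with replicate 1 now the low value. In 12w-res the 5 mice gave 0.468, 0.211, 0.137, 0 and 0.221 FPM, which are 9, 4, 3, 0 and 4 reads. Every 12w-res mouse was below every mouse on dox, which had at least 141 reads. The mouse with 0 reads allows a level of up to 0.177 FPM (3 reads, counting error only).

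Group means of Otoa were 10.9 ± 4.03 (SD, n = 3), 13.7 ± 5.87 (SD, n = 4) and 0.207 ± 0.170 FPM (SD, n = 5). The ratio of means was 65.9 for 12w+dox to 12w-res and 52.5 for 6w+dox to 12w-res. The fitted differences were smaller, at -4.21 (SE 0.34) and -3.98 (SE 0.37) on the scale of log2(FPM + 0.5), since the added 0.5 outweighs levels near 0. With 0.1 in its place they were -5.53 and -5.30, and without 12w+dox replicate 1 the first was -4.62. Otoa ranked 2nd from the bottom of 15315 genes against 12w+dox and 9th from the bottom against 6w+dox. In whole tumors, fewer cells of a type that makes a transcript and less RNA per cell cannot be told apart.

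**Figure D1:**
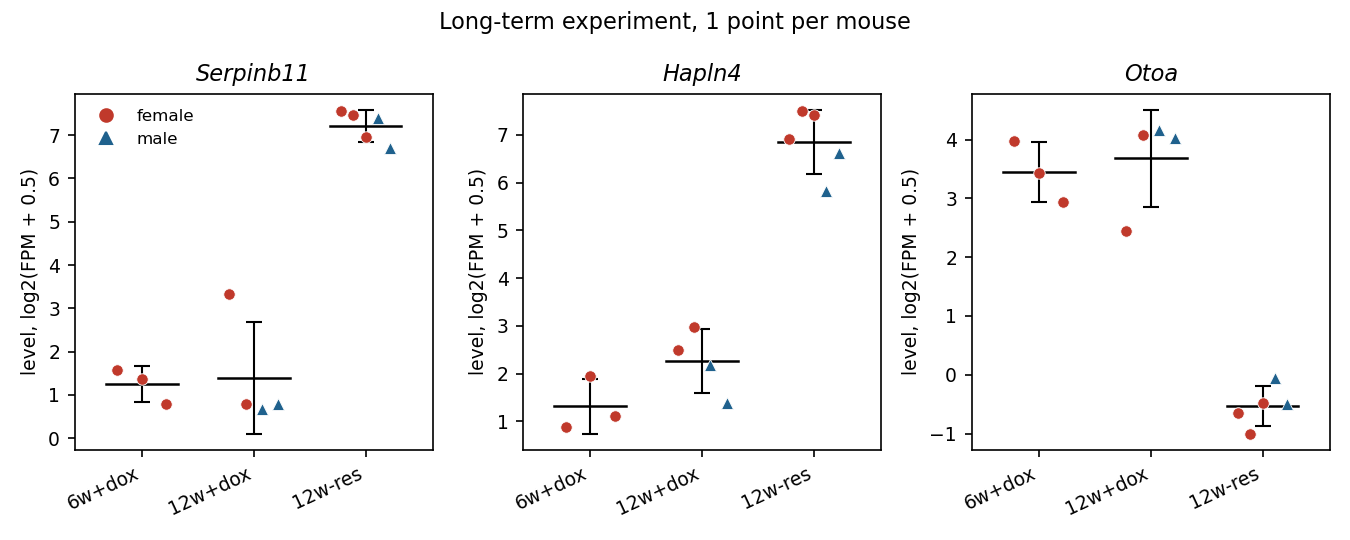
Level of each gene in each long-term mouse on the scale of log2(FPM + 0.5) (y axis), by group (x axis), with circles for females, triangles for males, horizontal lines for group means and vertical bars for 1 SD. The 5 mice of 12w-res lie above all mice on dox for Serpinb11 and Hapln4 and below them for Otoa, and 1 female at 12w+dox stands above its group for Serpinb11 and below it for Otoa.

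Thus 12w-res did not overlap 12w+dox or 6w+dox for any of the 3 genes. Non-overlap of this kind was found for 34.5% of all genes against 12w+dox and 32.7% against 6w+dox. Calls, at an adjusted p under 0.05 in limma and a log2 fold change over 1 in either direction, were made for 11.3% of all genes against 12w+dox (6.24% higher and 5.04% lower) and for 11.6% against 6w+dox (5.81% higher and 5.82% lower). As the same contrasts chose the 3 genes, nothing is read from these counts. By group means per kilobase of transcript, Otoa was the highest of the 3 genes on dox and the lowest in 12w-res. In 12w-res the mean level was 73.0 FPM per kb for Serpinb11, 34.1 for Hapln4 and 0.055 for Otoa. At 6w+dox Otoa was the highest with 2.88 FPM per kb, before Serpinb11 with 0.934 and Hapln4 with 0.583, and the mice of these last 2 genes overlapped. At 12w+dox the means were 3.62 FPM per kb for Otoa, 1.58 for Serpinb11 and 1.28 for Hapln4, with overlap between all 3 genes. Without 12w+dox replicate 1 they were 4.39 for Otoa, 1.24 for Hapln4 and 0.570 for Serpinb11, so that the order of the last 2 genes rested on that mouse.

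None of the 3 genes was called during tumor progression, the comparison of 12w+dox with 6w+dox, in which 7.2% of all genes were called by limma. For Serpinb11 the difference was 0.15 on the log2 scale (95% interval -0.94 to 1.23, limma adjusted p = 0.863), and without 12w+dox replicate 1 it was -0.50 (adjusted p = 0.164). For Otoa it was 0.23 (95% interval -0.60 to 1.06, limma adjusted p = 0.704), and without replicate 1 it was 0.64 (adjusted p = 0.124). In both genes the groups overlapped. Without 6w+dox replicate 3 the differences were -0.081 for Serpinb11 and -0.020 for Otoa. These intervals cover 1 gene at a time.

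Hapln4 came closest to a change with time on dox. Its difference was 0.95 on the log2 scale (SE 0.41, 95% interval 0.067 to 1.83, limma adjusted p = 0.111), from a mean of 2.13 FPM to 4.68 FPM. The 6w+dox mice were all female, and with sex as a covariate the difference was 1.45 (limma adjusted p = 0.0103), which passed the test. In the females alone, Hapln4 was 1.34 to 3.38 FPM at 6w+dox and 5.13 to 7.43 FPM at 12w+dox, without overlap, whereas the 2 males at 12w+dox had 2.12 and 4.03 FPM. The share of all genes without overlap in these females was not counted. The call also came with libraries scaled to their totals, at 1.24 (limma adjusted p = 0.0354), a scaling that moved the median of all genes by 0.30 in this comparison, and without 12w+dox replicate 4, at 1.24 (limma adjusted p = 0.0494).

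Within 12w-res, 3 females had 120 to 180 FPM of Hapln4 and 2 males 56.5 and 97.3 FPM. In both groups that held both sexes, every female was above every male. How many of all genes separate the sexes in this way was not counted, so nothing is read from this separation. The fitted difference within groups was 1.01 on the log2 scale, females minus males (SE 0.26, 95% interval 0.46 to 1.56), but it did not pass adjustment over all genes (limma adjusted p = 0.612), where 0.0457% of genes were called. Serpinb11 (0.75, 95% interval -0.13 to 1.64) and Otoa (-0.62, 95% interval -1.29 to 0.051) gave a limma adjusted p of 1.00 each. With sex in the fit, the differences of 12w-res from 12w+dox were 5.74 for Serpinb11, 4.49 for Hapln4 and -4.15 for Otoa on the log2 scale.

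None of the 3 genes was called in the first days after dox removal, when GFP was falling. Serpinb11 was close to the limit of detection in all 13 mice. At 16w +dox it stood at 0.250, 0.722 and 0.332 FPM, and at 1d -dox at 0.180, 0.244, 0.0997 and 0.491 FPM. At 3d -dox it stood at 0.956, 0.673 and 0.124 FPM, and at 5d -dox at 0.421, 0.312 and 0.478 FPM. All 4 groups overlapped, on 4 to 44 reads a mouse. The differences from 16w +dox were -0.30, 0.16 and -0.020 at 1, 3 and 5 days on the log2 scale (limma adjusted p = 0.666, 0.819 and 0.986). At 5 days the 95% interval of the Serpinb11 ratio ran from 0.648 to 1.5 on the FPM + 0.5 scale, which understates changes of a gene this low. The added 0.5 was above every Serpinb11 level at 1d -dox (up to 0.491 FPM) and at 5d -dox (up to 0.478 FPM).

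Hapln4 spread widely within each short-term group. At 16w +dox it stood at 2.60, 8.90 and 3.98 FPM, and at 1d -dox at 2.76, 5.01, 0.922 and 3.58 FPM. At 3d -dox it stood at 1.89, 3.14 and 0.762 FPM, and at 5d -dox at 5.24, 2.62 and 5.71 FPM. The 3d -dox mice were the lowest on average, and their highest value was above the lowest at 16w +dox. The differences from 16w +dox were -0.67, -1.19 and -0.076 on the log2 scale (limma adjusted p = 0.575, 0.252 and 0.966). Without 16w +dox replicate 2, the mouse with 8.90 FPM, they were -0.22 at 1 day, -0.74 at 3 days and 0.37 at 5 days. At 3 days, within males, the 95% interval of the Hapln4 ratio ran from 0.208 to 0.926 before any adjustment for the number of genes. At 5 days it ran from 0.449 to 2.0.

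Otoa varied least of the 3 genes in the short-term mice. At 16w +dox it stood at 4.24, 3.53 and 3.52 FPM, and at 1d -dox at 4.10, 6.05, 3.86 and 2.92 FPM. At 3d -dox it stood at 2.24, 3.06 and 3.66 FPM, and at 5d -dox at 4.37, 4.86 and 4.42 FPM. No mouse came near 0, and the lowest still had 103 reads. The differences from 16w +dox were 0.12, -0.31 and 0.25 on the log2 scale (limma adjusted p = 0.838, 0.469 and 0.639). At 5 days all 3 females were above all 3 males of 16w +dox, a non-overlap found for 19.3% of all genes in that comparison, and the 95% interval of the ratio was 0.878 to 1.60.

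Calls by limma were rare for all genes in these comparisons, at 0.043% at 1 day, 0.129% at 3 days and 0.193% at 5 days, so the absence of a call for 3 genes is near the background. Between 5d -dox and 1d -dox, both female, 0.0143% of genes were called. There the differences were 0.28 for Serpinb11, 0.59 for Hapln4 and 0.13 for Otoa on the log2 scale (limma adjusted p = 0.874, 0.857 and 0.917). By the group means per kilobase, Serpinb11 was the lowest of the 3 genes in every short-term group, at 0.122 to 0.280 FPM per kb. Hapln4 (0.529 to 1.41 FPM per kb) and Otoa (0.792 to 1.21 FPM per kb) changed places between groups.

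**Figure D2:**
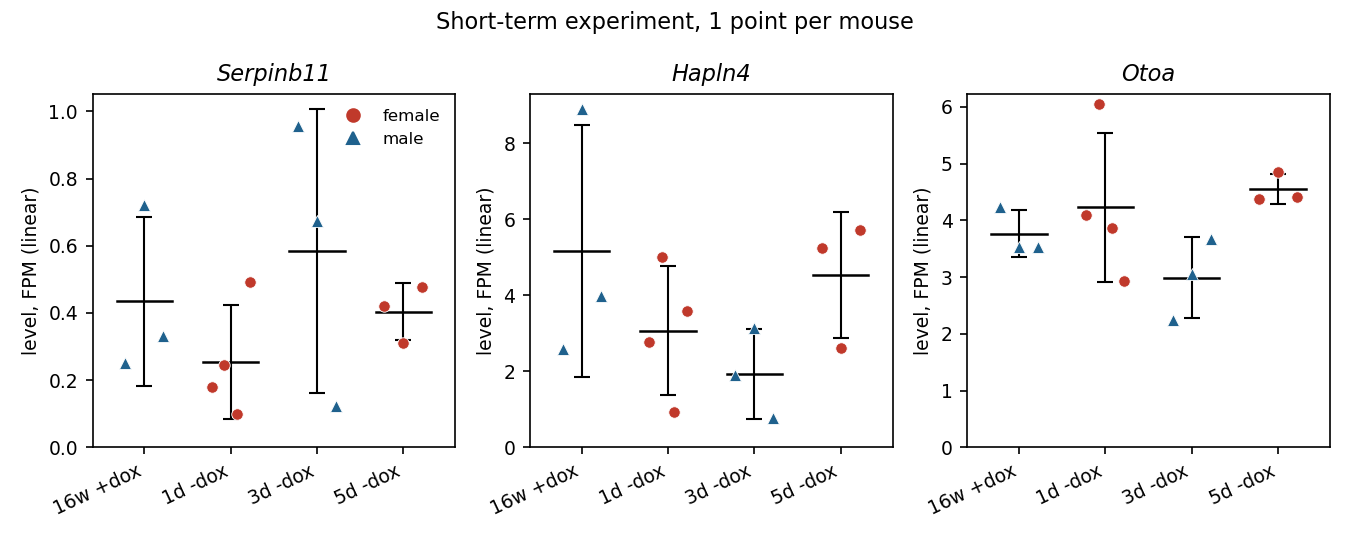
Level of each gene in each short-term mouse in linear FPM (y axis), by group (x axis), with circles for females, triangles for males, horizontal lines for group means and vertical bars for 1 SD. The groups overlap for Serpinb11 and Hapln4, and for Otoa the 3 mice at 5d -dox lie above those at 16w +dox.

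**Figure D3:**
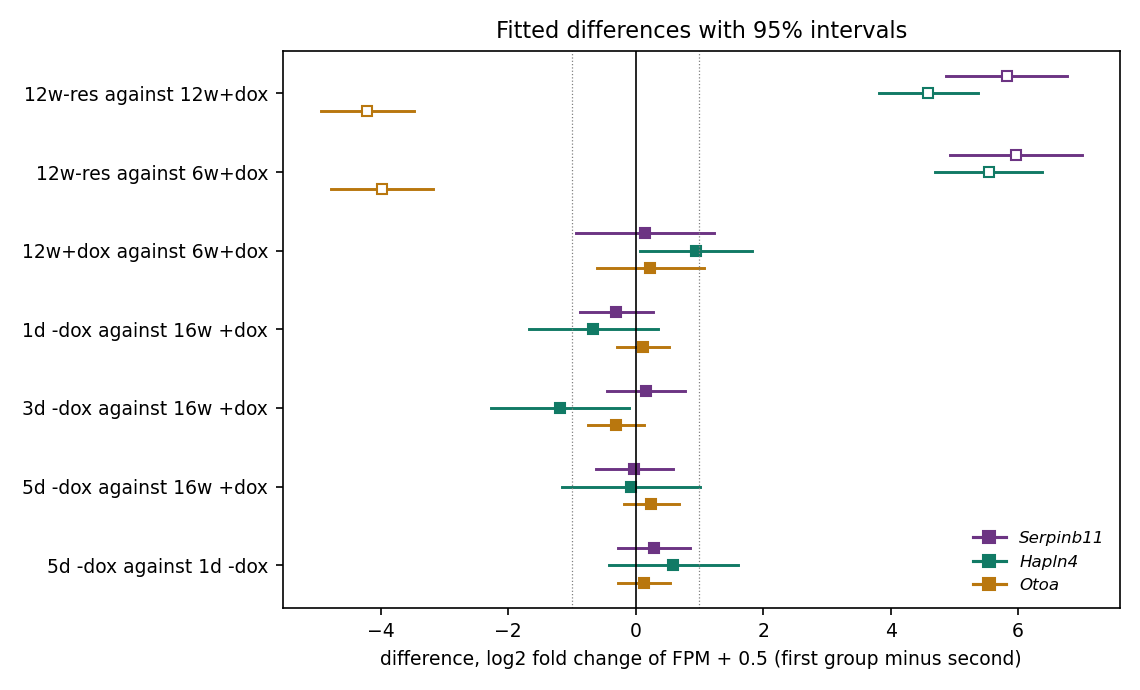
Fitted difference of each gene in 7 comparisons as log2 fold change of FPM + 0.5 (x axis), with 95% intervals as horizontal lines and a log2 fold change of 1 in each direction as dotted lines. Open squares mark the 2 comparisons that chose the genes, in which values run from -4.21 to 5.96, and filled squares the other 5, in which they run from -1.19 to 0.95.

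Besides Serpinb11, 7 of the 27 genes on the list of clade B serpins were tested, with 2 higher and 1 lower in 12w-res than in 12w+dox, and a median log2 fold change of 0.52 beside -0.0040 over all genes. Against 6w+dox, 3 were higher and 1 lower, and 6 of the 7 had a log2 fold change above 0. The median was 0.68 beside -0.021 over all genes. Of all genes, 6.24% were called higher and 5.04% lower against 12w+dox, and 5.81% and 5.82% against 6w+dox. Serpinb1a, an inhibitor of neutrophil proteases, rose from a mean of 1.72 to 4.98 FPM (1.26 on the log2 scale, limma adjusted p = 0.00786). Serpinb7 had 0 or 1 read in each of the 7 mice on dox and 8 to 35 reads in 12w-res. It passed the minimum of 10 reads through 12w-res alone, so it had to differ to be tested, and its place among the genes called higher is not read as a result. The counts and medians above include Serpinb7, so no shift of the family is read from them. Against 12w+dox, 4 of the 7 genes had a log2 fold change above 0, Serpinb7 among them, and 3 below. Serpinb8, whose protein can inhibit furin, fell by 1.56 on the log2 scale (limma adjusted p = 9.44e-06), from 12.6 to 17.7 FPM at 12w+dox to 3.70 to 6.08 FPM in 12w-res. Against 6w+dox the called genes were these 3 and Serpinb6b, which was higher (1.32, limma adjusted p = 0.00247), and none of the 7 was called between 12w+dox and 6w+dox or in the short-term mice.

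Serpinb7 and Serpinb8 are also the nearest listed genes after Serpinb11 on chromosome 1, at 42.2 kb and 209 kb. Serpinb8 was the one that fell, and the log2 value of Serpinb7, 1.30, depends on the added 0.5. On the other side, the nearest listed genes were Vps4b, an ATPase of the ESCRT pathway, and Kdsr, an enzyme of sphingolipid synthesis, 566 kb and 603 kb away. Their differences between 12w-res and 12w+dox were -0.0084 and -0.16 on the log2 scale (limma adjusted p = 0.952 and 0.434).

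The partners of link proteins showed a mixed picture around Hapln4. The list of link proteins, lecticans and genes of hyaluronan had 21 tested genes besides Hapln4, with 3 higher and 1 lower in 12w-res than in 12w+dox and a median log2 fold change of 0.56. Against 6w+dox, 3 were higher and 2 lower, with a median of 0.14. The medians over all genes were -0.0040 and -0.021. Of all genes, 6.24% were called higher and 5.04% lower against 12w+dox, and 5.81% and 5.82% against 6w+dox. Among the lecticans, which link proteins hold on hyaluronan, Acan (aggrecan) had 0 to 6 reads in each mouse on dox and 9 to 45 reads in 12w-res. Like Serpinb7 it passed the minimum through 12w-res alone, and its call is not read as a result. The counts and medians of this list include Acan, so no shift of the list is read from them. Bcan (brevican) rose from a mean of 7.41 to 24.2 FPM (1.67 on the log2 scale, limma adjusted p = 7.00e-04). Against 6w+dox Bcan gave 0.22 (limma adjusted p = 0.628), and it fell by 1.45 on the log2 scale from 6w+dox to 12w+dox (limma adjusted p = 0.00964).

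Tnc, the matrix protein tenascin C, rose by 2.09 (limma adjusted p = 0.0052) against 12w+dox and 2.11 (limma adjusted p = 0.00921) against 6w+dox. Hmmr, a hyaluronan receptor that also serves the mitotic spindle, fell by 3.97 on the log2 scale against 12w+dox, from 27.8 to 1.34 FPM. The other 3 link protein genes stayed low, with group means of at most 1.91 FPM. Hapln2 was higher in 12w-res than at 6w+dox (1.04, limma adjusted p = 0.00566). Hapln1 was lower (-1.24, limma adjusted p = 0.00693), and also fell by 1.80 on the log2 scale from 6w+dox to 12w+dox (limma adjusted p = 0.00219). Hapln3 was not called in either comparison with 12w-res. From 6w+dox to 12w+dox, Ptprz1, Vcan, Bcan and Hapln1 were lower and Stab2 higher. Thus 5 of the 21 genes were called, beside 7.2% of all genes, in a comparison in which Hapln4 was not. In the short-term mice 0 of 16 tested genes of this list were called.

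Ncan, the lectican neurocan, is the nearest listed gene after Hapln4 on chromosome 8, at 2.22 kb. It stood at 4.50 to 8.04 FPM at 12w+dox and 2.18 to 3.15 FPM in 12w-res, without overlap and opposite in direction to Hapln4. Its log2 fold change of -0.98 (limma adjusted p = 0.00262) was just under the minimum for a call. Tm6sf2, Sugp1 and Rfxank, the other 3 neighbours, had log2 fold changes of -0.26, 0.21 and 0.17, none called.

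Few relatives of Otoa were measured. Of 15 genes on the list of otoancorin, mesothelin and inner ear gel proteins, 3 besides Otoa were tested, and Strc, the closest relative, was not among the listed genes. Msln, or mesothelin, rose from 0.267 to 0.640 FPM at 6w+dox to 1.69 to 5.67 at 12w+dox (2.09 on the log2 scale, limma adjusted p = 0.0259). In 12w-res it stood at 0.740 to 10.6 FPM, higher than at 6w+dox (2.67, limma adjusted p = 0.00317), and 0 of the 3 genes were called against 12w+dox. The neighbours of Otoa on chromosome 7, Igsf6, Mettl9, Usp31 and the sodium channel gene Scnn1g, had log2 fold changes of 0.14, -0.038, -0.27 and -0.99 between 12w-res and 12w+dox, none called, beside -4.21 for Otoa. Scnn1g (limma adjusted p = 0.0167) was just under the minimum for a call, in the same direction as Otoa. From 6w+dox to 12w+dox Scnn1g was called higher (1.22, limma adjusted p = 0.0195).

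**Figure D4:**
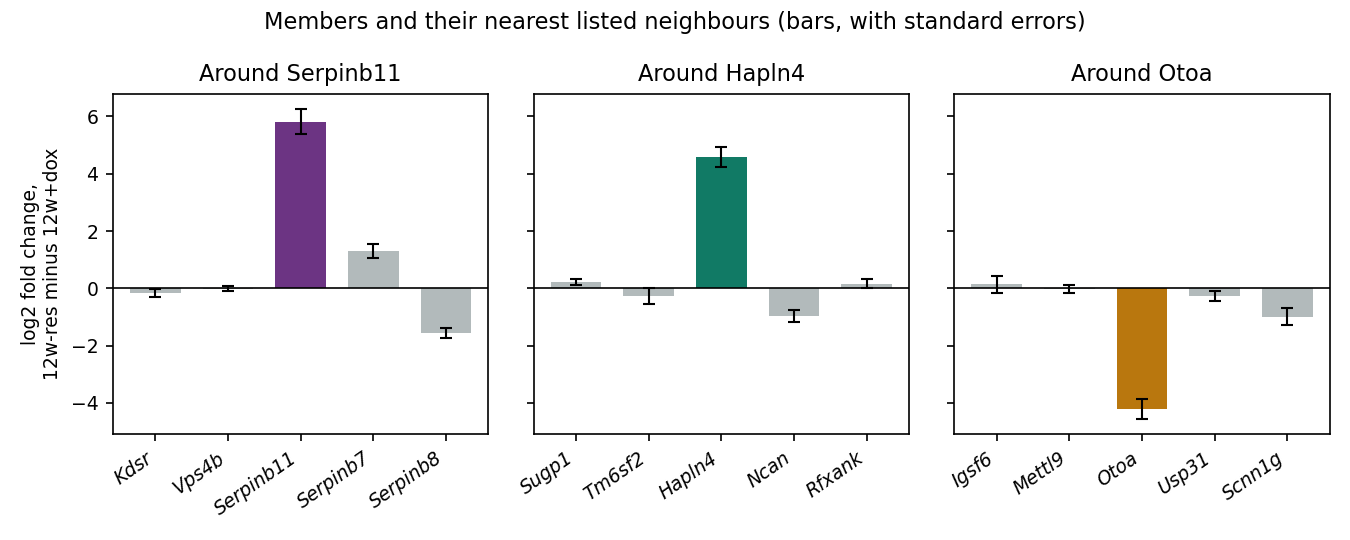
Log2 fold change between 12w-res and 12w+dox (y axis) of each member (coloured bar) and the 2 nearest listed genes on each side in chromosome order (grey bars), with standard errors as vertical lines. The neighbours lie between -1.56 (Serpinb8) and 1.30 (Serpinb7), and the members at 5.82, 4.59 and -4.21.

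Across the 12 long-term mice each member had close companions in level. The nearest to Serpinb11 by Pearson's r of log2(FPM + 0.5) were Nupr1, a stress-induced nuclear protein (r = 0.986), Gm1045 (r = 0.982) and Ryr3, a calcium release channel (r = 0.981). The nearest to Hapln4 were Cgref1 (r = 0.992), Ly6g6c (r = 0.990) and Srpr, the receptor of the signal recognition particle that brings secreted proteins to the endoplasmic reticulum (r = 0.988). The nearest to Otoa were Mcm5, a subunit of the replicative helicase, and Cdca7, a cell division cycle gene, and Trim59, each with r = 0.989. These correlations span 3 groups that stand far apart and were the highest among 15315 genes, so they describe the group pattern and little else.

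Levels of these companions show the pattern in FPM. Nupr1 had 3.11 to 9.11 FPM on dox and 51.3 to 72.6 FPM in 12w-res. Ly6g6c had 0.195 to 2.54 FPM on dox and 11 to 39.7 in 12w-res. Mcm5 had 45.0 to 71.7 FPM on dox and 5.14 to 8.32 in 12w-res. Like Otoa, Mcm5 was lowest in the 5 mice of 12w-res, but it kept a measurable level there.

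In the 13 short-term mice, which played no part in choosing them, the companions of Hapln4 stayed closest to it, with r of 0.649 for Cgref1, 0.618 for Ly6g6c and 0.892 for Srpr. For Serpinb11, r was 0.122 with Nupr1 and 0.322 with Ryr3. For Otoa, r was 0.571 with Mcm5, 0.176 with Cdca7 and 0.408 with Trim59. How many of all genes reach such r with a member in these mice was not counted, so nothing further is read from these values. Between the members, r was 0.947 for Serpinb11 and Hapln4, -0.980 for Serpinb11 and Otoa and -0.949 for Hapln4 and Otoa over the long-term mice. Over the short-term mice the values were 0.492, -0.599 and 0.238. The members were chosen for large differences between the long-term groups, so their long-term r follows from that choice and nothing is read from it. All points share library scaling, and those of low genes share counting error.

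**Figure D5:**
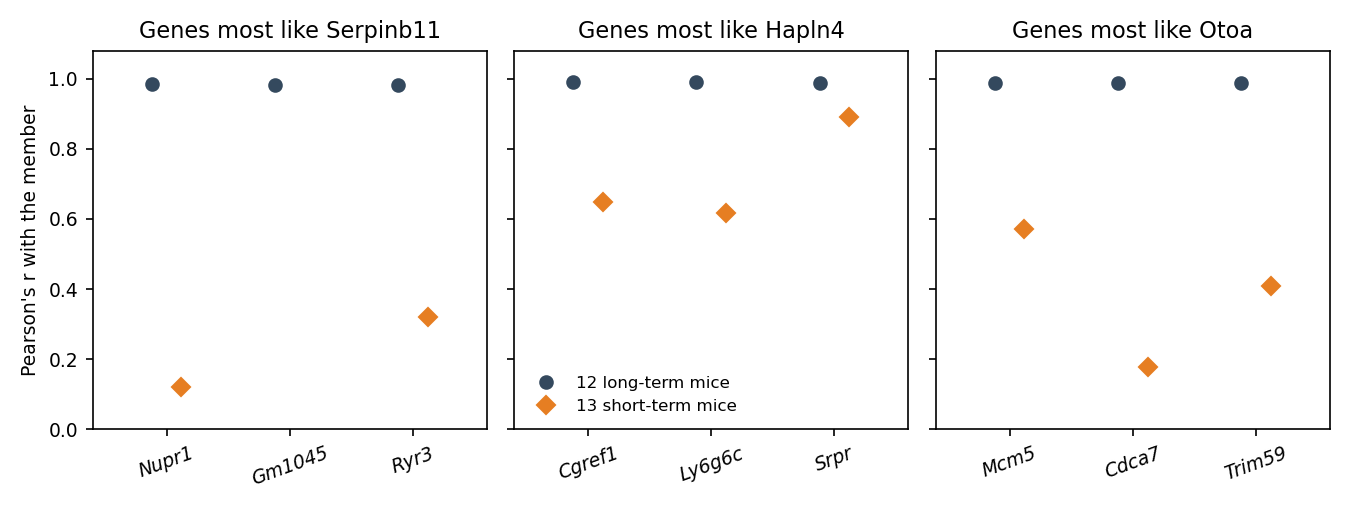
Pearson's r of log2(FPM + 0.5) (y axis) between each member and its 3 most similar genes (x axis), over 12 long-term mice (circles) and 13 short-term mice (diamonds, absent for Gm1045). In the short-term mice r runs from 0.122 for Nupr1 with Serpinb11 to 0.892 for Srpr with Hapln4.

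Markers of other cells differed between the same groups, in which 11.3% of all genes were called against 12w+dox and 11.6% against 6w+dox. Of the fibroblast and pericyte markers, 6 of 6 were higher in 12w-res than at 12w+dox and 3 of 6 than at 6w+dox, and their summed level was 342 to 350 FPM at 6w+dox, 140 to 437 at 12w+dox and 795 to 1267 in 12w-res. Endothelial markers were higher for 4 of 5 against 12w+dox and 0 of 5 against 6w+dox, with sums of 166 to 218 FPM at 6w+dox, 55.9 to 118 at 12w+dox and 182 to 246 in 12w-res. Markers of somatotrophs, lactotrophs and thyrotrophs, cells of the anterior lobe, were higher in 12w-res than at 12w+dox for 2 of 5 genes and lower than at 6w+dox for 3 of 5, with sums of 56830 to 92020 FPM at 6w+dox, 1154 to 12505 at 12w+dox and 16077 to 30475 in 12w-res. Within 12w+dox, replicate 1, the mouse with the high Serpinb11 and low Otoa, had the highest sum of fibroblast and pericyte markers (437 FPM), of endothelial markers (118 FPM) and of anterior lobe markers (12505 FPM, against 1154 to 2665 in the other 3 mice). That mouse also had the highest sum of immune (70.2 FPM) and neural lobe markers (21.8 FPM) and the lowest of squamous markers (13.1 FPM). For the melanotroph, gonadotroph, stem cell and neuron lists it lay between other mice of its group. Its Rb1 level, 3.45 FPM, lay among the others.

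Markers of squamous epithelium, where many clade B serpins are at home, were not higher for any of 4 listed genes, and Krt14 was lower than at 6w+dox (sums of 13.8 to 23.9 FPM at 6w+dox, 13.1 to 19 at 12w+dox and 11.1 to 15 in 12w-res), and Ivl and Dsg3 were not among the listed genes. Genes listed as markers of neurons, cells known to make Hapln4, were called for 0 of 6 genes (sums of 947 to 1297 FPM at 6w+dox, 1212 to 1578 at 12w+dox and 891 to 1026 in 12w-res). The list includes Snap25 and Syt1, and its sum is not read as an amount of neurons. Of 5 listed immune markers 0 were called, with sums of 54.1 to 72.6 FPM at 6w+dox, 47.7 to 70.2 at 12w+dox and 82.8 to 114 in 12w-res. Every 12w-res mouse was above every mouse on dox in this sum. By gene, 4 of the 5 lay above 0 in both comparisons. Their median log2 fold change was 0.76 against 12w+dox and 0.88 against 6w+dox. Of 6 markers of melanotrophs, the cells that make Pomc in the intermediate lobe, Pcsk2 was called higher in 12w-res in both comparisons and Neurod1 lower than at 6w+dox. Their summed level was 110923 to 383001 FPM at 6w+dox, 98588 to 201558 at 12w+dox and 462273 to 583569 in 12w-res, so that every 12w-res mouse was above every mouse on dox. That sum is weighted to Pomc, which alone took 39.1% to 43.2% of reads in 12w-res. By gene, 2 of the 6 markers had a log2 fold change above 0 and 4 below 0 against 12w+dox (median -0.073). Against 6w+dox, 4 lay above 0 and 2 below (median 0.86).

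Of 5 markers of stem and folliculostellate cells, Aldh1a2 and Sox9 were higher in 12w-res than at 12w+dox, and Aldh1a2 was lower than at 6w+dox (sums of 101 to 147 FPM at 6w+dox, 62.9 to 87.1 at 12w+dox and 68.5 to 89.4 in 12w-res). Markers of the neural lobe and its pituicytes were called for 0 of 5 genes against 12w+dox and were lower for 5 of 5 against 6w+dox (sums of 54.0 to 161 FPM at 6w+dox, 7.34 to 21.8 at 12w+dox and 11.6 to 21.4 in 12w-res). Gonadotroph markers were called for 0 of 4 genes in either comparison, with sums of 509 to 679 FPM at 6w+dox, 24.3 to 745 at 12w+dox and 85.7 to 1897 in 12w-res. The part of any of these cells in the levels of Serpinb11, Hapln4 and Otoa was not tested.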

How the data were processed

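The long-term (12 mice) and short-term (13 mice) tables were analysed apart, with groups, replicate numbers and sexes from the labels and 0 columns of samples left unused. Reads were mapped by the authors to mm10 with STAR at default settings and assigned to RefSeq genes. The deposited values are a signal already scaled by DESeq2 size factors (FPM). Genes were tested if they had 10 reads or more in over 50% of a condition's mice. All 15315 long-term genes passed, and 13958 of the 14007 short-term genes. The counting tool and its use of strand are not given in the sources used here. Within 0.1 of a read, each value divided by what 1 read is worth gave a whole number (100% of values), so whole reads were recovered. The 2 long-term lines without a gene name and 4 short-term lines that are not genes were left out. The short-term lines held 68.8% to 75.0% of each mouse's counts. In the short-term mice 1 read was worth 0.0204 to 0.0305 FPM, with 9573101 to 13036900 reads on genes. In the long-term mice 1 read was worth 0.0279 to 0.0590 FPM, with 19066053 to 28968476. The same share of reads on genes thus gave a lower FPM in the short-term mice.

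The main test was limma 3.58.1 (R 4.3.3) with a trended prior variance on log2(FPM + 0.5), all groups of an experiment in one fit, with Benjamini-Hochberg adjustment over all genes. Genes were called where the adjusted p was under 0.05 and the log2 fold change over 1 in either direction. Alternatives were edgeR 4.0.16 and DESeq2 1.42.0 on the recovered reads, scaling by TMM or totals, a pseudocount of 0.1 or 1, other filters, only the groups compared, a replicate block, sex as a covariate and leaving out each mouse. The labels do not say how mice of a group were related, so p-values measure the spread between these mice.

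Replicate numbers did not pair the mice: the deviations of same-numbered mice correlated at -0.165 to 0.237 in the long-term and -0.208 to 0.168 in the short-term experiment. The 3 genes and all gene lists were chosen with earlier results of these data known. Named genes are the 3 members, list genes past the test in a comparison used, the 3 genes most correlated with each member over the long-term mice and the 2 nearest listed genes on each side. Of the gene names, 14634 of 15315 and 13474 of 14007 matched the RefSeq table of GRCm38.p6.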

Additional observations from a re-analysis of the deposited data

Results flagged for a closer look

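In 12w+dox, the group of 4 mice on dox for 12 weeks, the Serpinb11 level of replicate 1 (9.60 FPM) stood apart from the other 3 (1.11 to 1.23 FPM) by Dixon's criterion at 95%. The Otoa level of the same mouse (4.92 FPM) stood apart below the other 3 (15.8 to 17.5 FPM). These were 2 of the 9 sets of 4 or 5 mice examined over the 3 genes, where chance flags about 1 in 20, and both values come from 1 mouse and so are not independent. For both genes the value lay on the side of 12w-res and short of its range, and Hapln4 in that mouse (5.13 FPM) lay within the range of its group.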

How the results depend on the processing

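All 6 differences of 12w-res from the dox-treated groups kept their direction under every alternative run. Otoa moved in size with the treatment of values near 0, at -5.53 against 12w+dox and -5.30 against 6w+dox with a pseudocount of 0.1, -3.48 and -3.25 with 1, -6.03 and -5.70 with DESeq2, and -5.98 and -5.65 with edgeR. Scaling to totals moved the median of all genes by -0.60 between 12w-res and 12w+dox and raised the genes called there from 1727 to 3608. Between 12w+dox and 6w+dox, Hapln4 passed the test with totals (1.24) and with sex as a covariate (1.45), and Otoa turned to -0.079 with sex. Leaving out 1 mouse at a time gave 0.71 to 1.27 for Hapln4 (called only without 12w+dox replicate 4), -0.020 to 0.64 for Otoa (below 0 without 6w+dox replicate 3) and -0.50 to 0.38 for Serpinb11 (below 0 without 12w+dox replicate 1 or 6w+dox replicate 3), and without 6w+dox replicate 3 the genes called there rose from 1102 to 1679. The cause of these changes was not tested.

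In the short-term mice no alternative gave a call for the 3 genes. Leaving out 1 mouse at a time ran from -0.054 to 0.26 for Otoa at 1 day, -0.095 to 0.52 for Serpinb11 at 3 days, -0.16 to 0.19 for Serpinb11 and -0.43 to 0.37 for Hapln4 at 5 days, and -0.011 to 0.30 for Otoa between 5 days and 1 day. With the replicate number as a block, which the check of pairing did not support, Otoa gave -0.011 in that last comparison, and the block changed no other direction and no call. Genes called in all went from 6 to 113 at 1 day, 18 to 104 at 3 days, 27 to 139 at 5 days and 2 to 7 between 5 days and 1 day with DESeq2, and to 3, 1, 5 and 2 with only the groups compared. Over mice left out in turn they ran from 0 to 11, 2 to 39, 2 to 31 and 2 to 3. Sex could not be fitted in the short-term mice, where it follows from the group. With 10 reads required in every mouse, Otoa in the long-term and Serpinb11 in the short-term table dropped out. Apart from the mice left out, 200 values kept their direction and side of the threshold, 8 moved, 2 reversed and 2 passed the test anew. Depth limits Serpinb11 in the short-term mice (4 to 44 reads) and Otoa in 12w-res (0 to 9 reads).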
